A study of Rattus norvegicus with 24 samples.

Results

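The nuclear genes for subunits of the oxidative phosphorylation machinery were compared across 4 maternal treatments in the fetal rat forebrain. They were chosen by symbol alone, with no measured value: genes whose names begin as Nduf followed by a, b, c, s or v and a digit, the 4 Sdh genes, and the Uqcr, Cox4 to Cox8 and Atp5 genes. The rule found 80 of the 17420 genes in the deposited table, of which 32 belong to complex I, 4 to complex II, 8 to complex III, 17 to complex IV and 15 to complex V. The other 4 match by name only and were kept apart: Atp5s and Atp5sl, which encode proteins other than ATP synthase subunits, the pseudogene Cox6c-ps1, and Ndufa10l1, a copy of Ndufa10 that spans 1434 bases against 35526 and may share reads with it. Ndufa4 and its paralog Ndufa4l2 carry a complex I name and were counted in complex IV, where the Ndufa4 protein is now placed.

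Each of the 24 libraries was RNA from the pooled hippocampus and neocortex of 1 Sprague-Dawley pup at embryonic day 18, with 6 pups a group taken as 3 pups from each of 2 litters. The first number of a pup's label was read as its litter throughout, which the labels do not state. The Saline group came from dams injected with vehicle. The MAM group came from dams given methylazoxymethanol acetate at 22 mg/kg, an alkylating agent that kills dividing neural progenitors, and the Poly I:C group from dams given the synthetic double-stranded RNA polyinosinic:polycytidylic acid at 7.5 mg/kg, a mimic of viral infection. Injections were on gestational day 17, 18 h before collection. The Low Protein group came from dams fed a 6.1% protein diet in place of the 20.3% protein control diet from gestational day 11 to day 18. The other 3 groups are recorded with the control diet. No injected dose is recorded for the Low Protein dams, and whether they received an injection is not stated. Diet and injection therefore cannot be told apart in Low Protein against Saline. Since a treatment was given to the dam, the 3 pups of a litter shared 1 exposure, and each group rests on 2 dams. The p-values given here measure the spread between pups, and treatment and litter cannot be told apart beyond the difference between those 2.

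Oxidative phosphorylation is carried out by 5 complexes of the inner mitochondrial membrane. Complex I and complex II pass electrons from NADH and succinate to ubiquinone, complex III passes them on to cytochrome c, complex IV reduces oxygen, and complex V, the ATP synthase, uses the proton gradient that the electron flow builds. Most subunits are encoded in the nucleus, and the core of every complex but complex II also holds subunits encoded by mitochondrial DNA, which were not analysed here. Fetal neural progenitors rely largely on glycolysis, and respiration gains in weight as neurons differentiate.

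The subunit genes lie on many chromosomes, and a set of them is known to share promoter elements for the factors NRF1 and GABP (NRF2). Promoter windows of 300 bases, 250 before to 50 after the start site, were found in RefSeq (rat build GRCr8) for 67 of the subunit genes and searched on both strands for the NRF1 core GCGCATGC (reverse complement GCATGCGC, the 2 overlapping where the longer palindrome is present) and the ETS site CCGGAAGT to which GABP binds. The NRF1 core was in 9 of the 67 windows (13.4%), against 2.66% of 27457 windows of all genes and 5.84% of the 4177 windows of genes that were tested here. The ETS site was in 7 windows (10.4%), against 4.01% of all windows and 10.5% of those of tested genes. The share for the ETS site was thus that of other genes at this level. One or the other was in 16 windows, of which 4 were in complex I, 1 in complex II, 3 in complex III, 3 in complex IV and 5 in complex V. Shown here, 5′ to 3′ along the gene and with the matched bases in capitals, are stretches around the match. They come from the windows of the 4 genes with a match that passed unadjusted p under 0.05 against Saline (Ndufa11, Ndufs1, Atp5g2 and Atp5i). With them is 1 further subunit gene of each of complexes II to IV. Each stretch is upstream of the start site of the 1 window used for its gene, which need not be the outermost start. Those of Atp5g2 and Cox5b lie inside the annotated span of the gene, and those of Sdhb and Atp5i cross its first base.
Ndufa11: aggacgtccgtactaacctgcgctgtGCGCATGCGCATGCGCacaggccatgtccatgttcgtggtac
Ndufs1: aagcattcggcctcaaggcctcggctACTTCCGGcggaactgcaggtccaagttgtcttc
Sdhb: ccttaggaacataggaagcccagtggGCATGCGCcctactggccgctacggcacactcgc
Uqcrc1: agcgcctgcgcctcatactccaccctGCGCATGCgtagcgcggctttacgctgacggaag
Cox5b: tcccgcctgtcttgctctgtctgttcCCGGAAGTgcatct
Atp5g2: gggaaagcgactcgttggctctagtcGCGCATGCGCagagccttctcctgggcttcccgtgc
Atp5i: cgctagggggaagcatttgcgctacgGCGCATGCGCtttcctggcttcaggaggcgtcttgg

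In GRCr8 these stretches, of 40 to 68 bases, were at chr9:1637491-1637558 on the plus strand for Ndufa11, chr9:72073772-72073831 on the minus strand for Ndufs1, chr5:158547741-158547800 on the plus strand for Sdhb, chr8:118468158-118468217 on the plus strand for Uqcrc1, chr9:46417797-46417836 on the plus strand for Cox5b, chr7:135678239-135678300 on the minus strand for Atp5g2 and chr14:1464758-1464819 on the plus strand for Atp5i. The Ndufa11 window held the core in 4 overlapping matches over both strands. Of the 11 members that passed unadjusted p under 0.05 in a treatment against Saline, 10 had a window and 4 a match, 3 of them to the NRF1 core. A match in letters is a description of the window and not a measured site.

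Values were TPM as deposited, a unit scaled by gene length and library total, with an offset of 0.0001 added to every value. Multiplied by the genomic span of the gene, low values fell on steps of whole reads, so they appear to be scaled by the whole gene with its introns, and a gene with long introns is listed low for its number of reads. The depth estimated from these steps, in units of 1e+06 reads a pup, was 27.4 to 58.7 in Saline, 35.2 to 64.8 in MAM, 25.02 to 62.5 in Low Protein and, over the narrowest range, 29.0 to 41.8 in Poly I:C. Markers of the tissue were present throughout, as shown by group means of 90.1 to 105 for Neurod6, a gene of cortical and hippocampal neurons. RNA of other cells was present as well. The summed value of 5 red cell markers was 467 to 897 in Saline pups and 472 to 1154 in treated pups, and that of 4 choroid plexus markers was 124 to 184 in Saline pups and 33.2 to 246 in treated pups, with none of these markers at 0 throughout. In such bulk tissue, fewer cells of a type and less RNA per cell cannot be told apart, and the part of these cells in the results was not tested.

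With a mean above 1 required in every group, 5086 genes were tested, among them 71 of the 80: 30 of complex I, all of complexes II and III, 13 of complex IV, 14 of complex V and 2 of the 4 kept apart. The members tested had a median span of 7178 bases, against 12278 for all genes tested. In Saline pups they were expressed over a wide range. Complex V held the highest value, with 99.2 ± 4.43 TPM (SD, n = 6) for Atp5b, the catalytic β subunit, and 47.4 ± 1.07 for Atp5a1, the α subunit; its lowest tested gene was Atp5c1, the γ subunit of the central stalk, with 5.99 ± 0.245. In complex IV the range was from 52.7 for Cox6a1 to 1.76 for Ndufa4l2, and in complex III from 22.1 for Uqcr10 to 2.36 for Uqcrb. Complex I, with the most members, ran from 32.6 for Ndufb10 to 1.12 for Ndufa12. The 4 genes of complex II lay closest together, from 2.70 for Sdha, the flavoprotein, to 5.61 for Sdhd, a membrane anchor. Since these values are per base of genomic span, the order of the genes is not that of their transcripts.

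**Figure D1:**
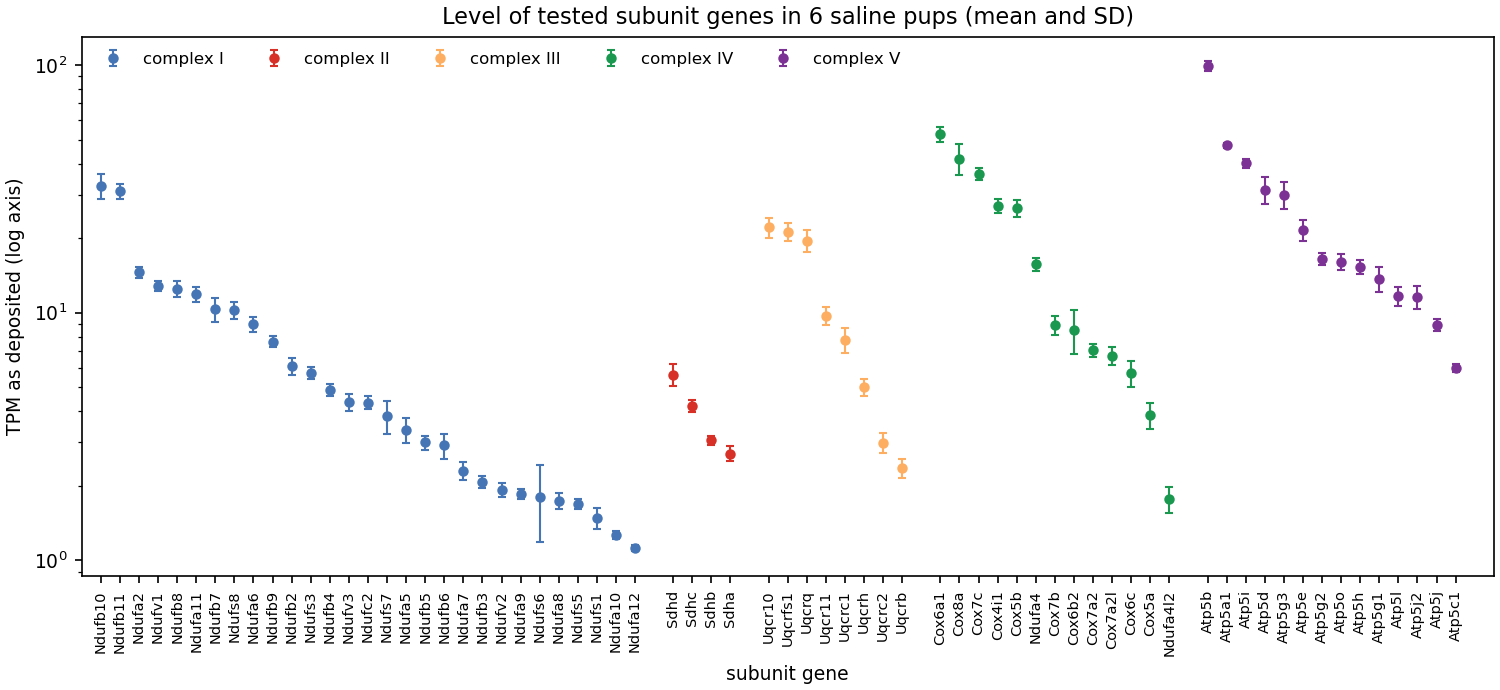
Mean TPM as deposited (log axis) of tested subunit genes (1 is not shown) in the 6 Saline pups, with the SD as a bar, ordered by level within each complex. Atp5b stands highest at 99.2, most bars are short, and the longest is that of Ndufs6.

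Most members varied little between pups. The median coefficient of variation over the 6 Saline pups was 7.64% for the 71 members and 8.68% for all 5086 genes. Ndufs6, a zinc-binding accessory subunit of complex I, was the exception, with a coefficient of variation of 34.6%. Its values were 1.05 at the lowest, 1.77 at the median and 2.80 at the highest in Saline, against 1.25, 1.87 and 2.77 in Poly I:C, 1.37, 2.05 and 2.76 in MAM, and 1.21, 1.95 and 2.21 in Low Protein. Low and high pups were thus found in every group and the groups overlapped fully. The log2 fold changes against Saline were 0.21 in MAM, 0.13 in Poly I:C and 0.01 in Low Protein, each with a standard error of 0.228, and none passed the test. Cox6b2, the paralog of Cox6b1 known for its expression in testis, came next in spread, from 4.18 to 11.6 over the 24 pups with both ends in treated groups. Cox6b1 itself was not among the genes found by the rule, so the members do not cover every subunit gene.

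**Figure D2:**
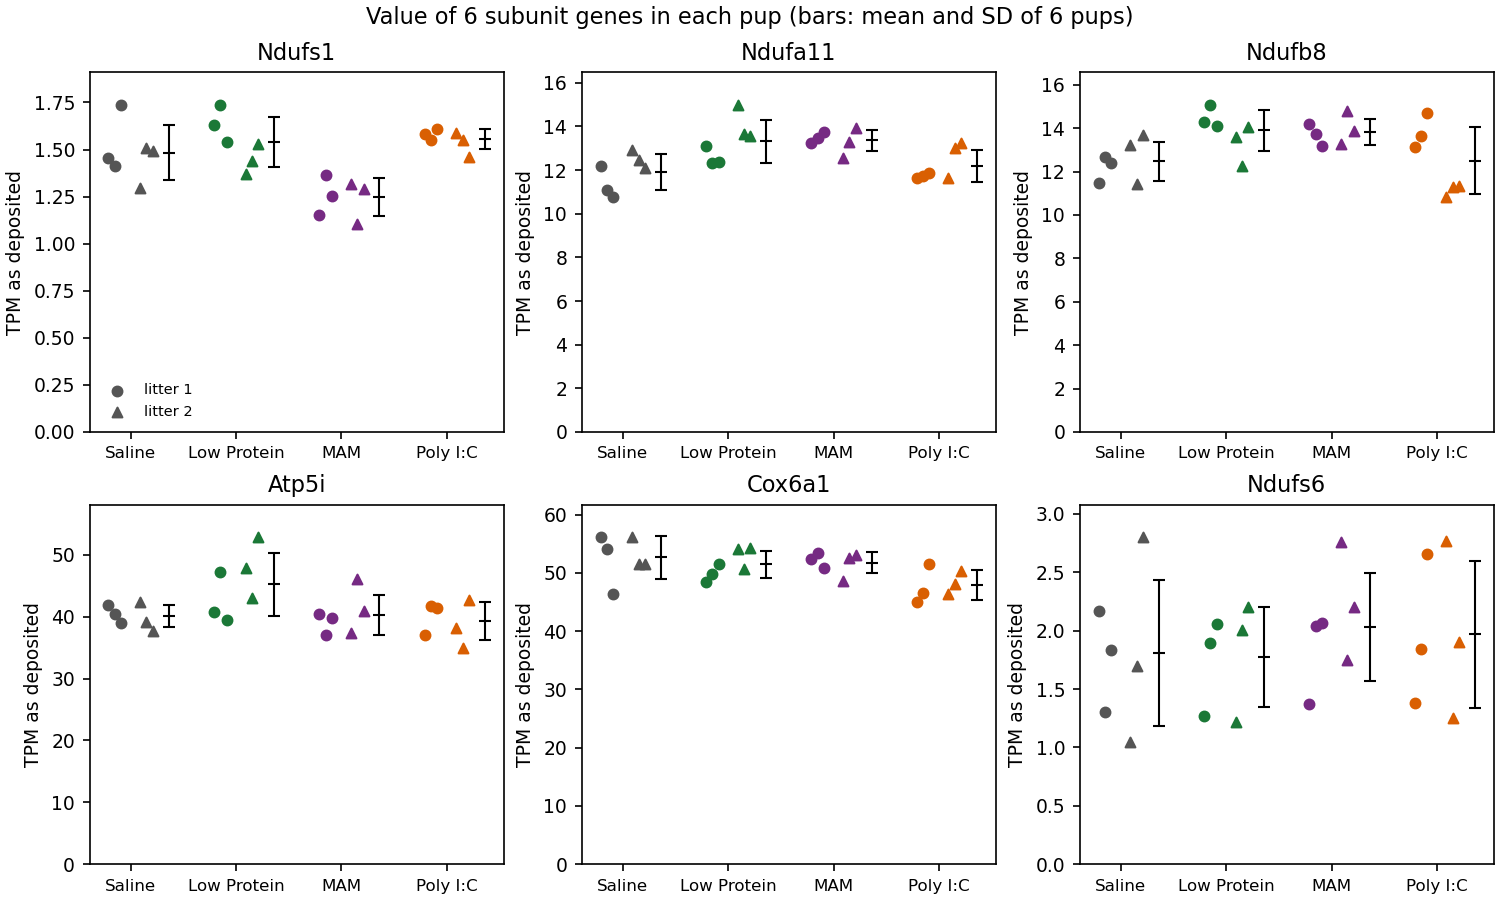
TPM as deposited of Ndufs1, Ndufa11, Ndufb8, Atp5i, Cox6a1 and Ndufs6 in each pup (circles litter 1, triangles litter 2 of the group), with the mean and SD of the 6 pups beside them; the axes start at 0. For Ndufs1 the MAM pups lie between 1.10 and 1.36, below every Low Protein and Poly I:C pup, and Ndufs6 is spread from 1.05 to 2.80 with no group apart.

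The first question was whether a low protein diet of the dam was accompanied by a change in the subunit genes of the fetal forebrain. In limma, fitted to log2 values of all 5086 genes and 24 pups, 6 of the 71 members were higher in Low Protein than in Saline at unadjusted p under 0.05 and 0 were lower, against 3.66% and 4.58% of all genes tested. After adjustment over all genes none passed, as was so for 0% of all genes, and the lowest adjusted p of a member was 0.479 (0.160 over all genes). The values of the 6 Low Protein pups were clear of those of the Saline pups for 0 members, against 0.747% of all genes. The median log2 fold change of the members was 0.05, against -0.01 for all genes, and 59 of 71 lay above 0 (83.1%, against 47.8% of all genes).

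Complex I held 5 of the 6 genes that passed, and 29 of its 30 genes were above 0, with a median of 0.05. Ndufa11, an accessory subunit at the membrane arm, was 10.8, 12.1 and 12.9 in Saline (lowest, median and highest) and 12.3, 13.3 and 15.0 in Low Protein. The groups overlapped only slightly. Its log2 fold change was 0.16 ± 0.055 (SE; limma, adjusted p = 0.479). Ndufa2, an accessory subunit of the NADH-oxidising module, was 13.3, 14.7 and 15.4 in Saline and 14.4, 16.4 and 19.3 in Low Protein, with a log2 fold change of 0.17 ± 0.079 (adjusted p = 0.581). Ndufb8 and Ndufb4, accessory subunits of the membrane arm, differed by 0.16 ± 0.069 and 0.15 ± 0.061, and Ndufs3, a core subunit near the quinone site, by 0.12 ± 0.056. These 3 genes overlapped between the groups, with 11.4 to 13.7 against 12.3 to 15.1 for Ndufb8.

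In complex V, Atp5i, subunit e of the membrane part, through which ATP synthase dimers form, was 37.7, 39.8 and 42.3 in Saline and 39.4, 45.2 and 52.9 in Low Protein (log2 fold change 0.17 ± 0.069, adjusted p = 0.543). It was the only gene of complex V to pass at unadjusted p under 0.05, while 11 of 14 lay above 0. The catalytic pair did not pass, with 0.00 for Atp5a1 (95% interval -0.08 to 0.07) and 0.02 for Atp5b (-0.06 to 0.10). Complex III had 5 of 8 and complex IV 9 of 13 genes above 0, with medians of 0.06 and 0.01. All 4 genes of complex II lay between 0.00 and 0.06.

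These counts changed with single pups. Low Protein pup 2.3 had the highest mean over the members of all 24 pups, 0.16 above the Saline mean on the log2 scale, where the other Low Protein pups lay between -0.01 and 0.08 and the Saline pups between -0.04 and 0.03. Without it, 2 of 71 members passed in place of 6 (Ndufa11 and Ndufb8), the median was 0.03 and 44 lay above 0. With each litter reduced to its mean, 2 passed as well, and without Low Protein pup 1.2 or pup 2.1 the counts were 3 and 11. Over all genes tested, leaving out 1 pup or litter gave 271 to 530 in place of 419.

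**Figure D3:**
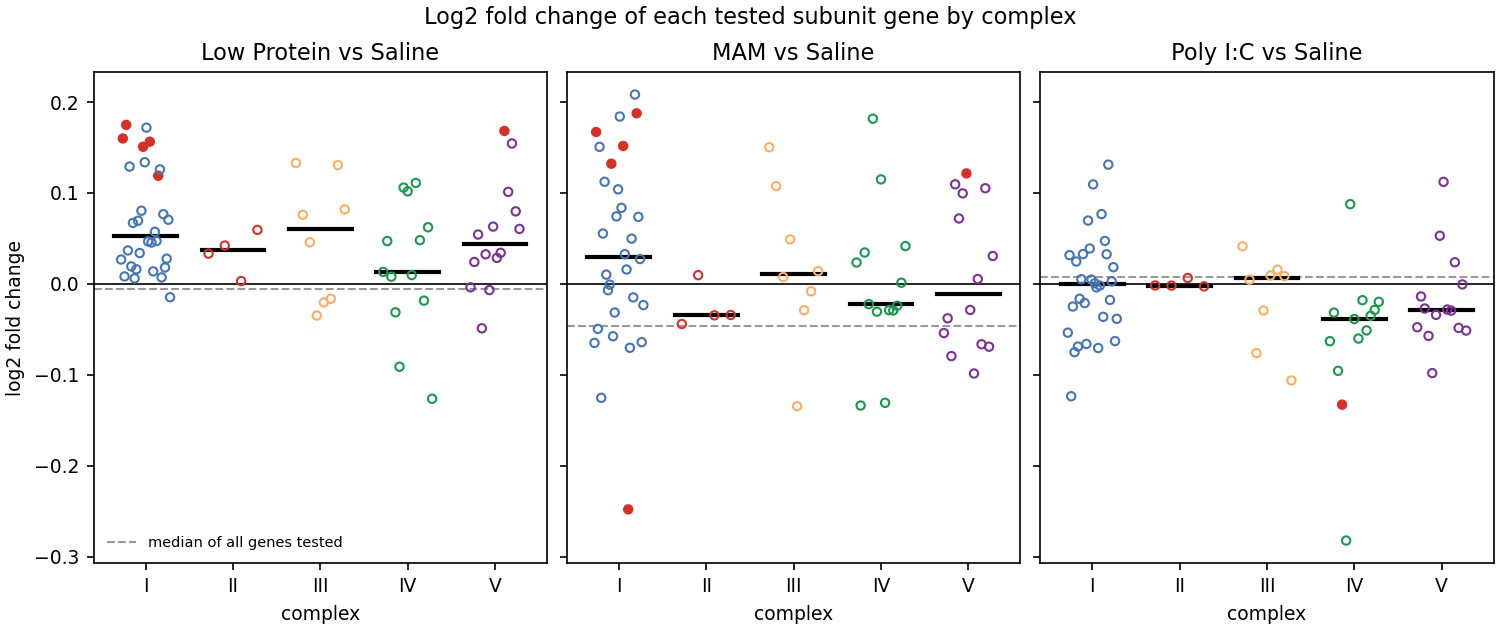
Log2 fold change against Saline of each tested subunit gene, by complex, in 3 panels; filled red points passed unadjusted p under 0.05, black bars are medians of a complex and the dashed line is the median of all genes tested. In Low Protein 59 of 71 members lie above 0, in MAM Ndufs1 stands lowest at -0.25, and in Poly I:C 1 of 13 complex IV genes lies above 0.

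In MAM against Saline, the members split. At unadjusted p under 0.05, 5 were higher and 1 was lower, where 3.07% of all genes were higher and 8.18% lower. None passed after adjustment (0.0197% of all genes did), the lowest adjusted p being 0.322, and 0 were clear of overlap (0.786% of all genes). The median log2 fold change was 0.01, against -0.05 for all genes, with 38 of 71 above 0 (53.5%, against 32.1% of all genes). Without Saline pup 1.3 the number that passed was 3 in place of 6, and without Saline pup 2.1 it was 10. With litter means, or without the first Saline litter, 0 members were higher in MAM at unadjusted p under 0.05. Leaving out 1 pup or litter gave 163 to 862 calls over all genes tested, in place of 572.

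Ndufs1 was the one that was lower. It encodes the large iron-sulfur subunit of complex I, which takes up electrons from NADH through a chain of clusters. Its values were 1.29, 1.47 and 1.74 in Saline, against 1.10, 1.27 and 1.36 in MAM, 1.37, 1.53 and 1.74 in Low Protein, and 1.46, 1.57 and 1.61 in Poly I:C. Every MAM pup was below every Low Protein and every Poly I:C pup, and the MAM and Saline ranges overlapped at 1 end. Against Saline the log2 fold change was -0.25 ± 0.066 (SE, limma, adjusted p = 0.322). It was also the only member with an adjusted p under 0.05 in the test of any difference among the 4 groups (limma F test, adjusted p = 0.0497).

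The 5 members that were higher in MAM were small or accessory subunits for the most part. Ndufa11 was 12.6, 13.4 and 13.9 in MAM (log2 fold change 0.17 ± 0.055, adjusted p = 0.391) and overlapped with the Saline pups. Ndufs7, a core subunit that holds the iron-sulfur cluster next to the quinone, was 3.19, 3.75 and 4.63 in Saline and 4.12, 4.29 and 4.57 in MAM (0.19 ± 0.077, adjusted p = 0.416). Atp5g2, 1 of a trio of genes for the c subunit of the rotor ring, was 15.1, 16.7 and 17.7 in Saline and 17.1, 18.1 and 18.5 in MAM (0.12 ± 0.044, adjusted p = 0.413). Ndufb11 and Ndufb8, both of the membrane arm, differed by 0.13 ± 0.054 and 0.15 ± 0.069. Ndufa11 and Ndufb8 passed in Low Protein as well, and the 2 comparisons share the same Saline pups.

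By complex, 18 of 30 genes of complex I, 1 of 4 of complex II, 5 of 8 of complex III, 6 of 13 of complex IV and 7 of 14 of complex V lay above 0 in MAM, as did 32.1% of all genes. Core subunits beside Ndufs1 gave 0.03 for Ndufv1 (95% interval -0.06 to 0.11) and -0.06 for Ndufv2 (-0.19 to 0.06). Uqcrc2 and Cox5a were at -0.13 each (-0.32 to 0.05 and -0.29 to 0.03), and Uqcrfs1, the Rieske iron-sulfur protein, at -0.03.

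In MAM the log2 fold change was lower in longer genes. Members with a span of up to 5000 bases had a median of 0.06 (14 of 20 above 0), those between 5000 and 10000 bases 0.01, those between 10000 and 20000 bases 0.01, and those over 20000 bases -0.06, with 1 of 10 above 0. For all genes tested the medians in the same bins were 0.01, -0.01, -0.04 and -0.09. Across the 71 members Pearson's r with log2 span was -0.40 and Spearman's rho -0.40, against -0.34 and -0.37 across 5013 genes. In Low Protein r was 0.00 and rho -0.03 across the members, but -0.17 and -0.22 across all genes, of which 34.4% were above 0 among those over 20000 bases and 56.3% among those up to 5000 bases. For the members these shares were 9 of 10 and 14 of 20. In Poly I:C r was 0.17 across the members and 0.02 across all genes. These are descriptions across genes of the same pups, and genes are not independent replicates. Ndufs1 spans 33320 bases and Ndufa11 4060. With the trend on span removed from each pup, Ndufs1 was at -0.16 in MAM against Saline, still at unadjusted p under 0.05, and 47 of 71 members lay above 0.

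**Figure D4:**
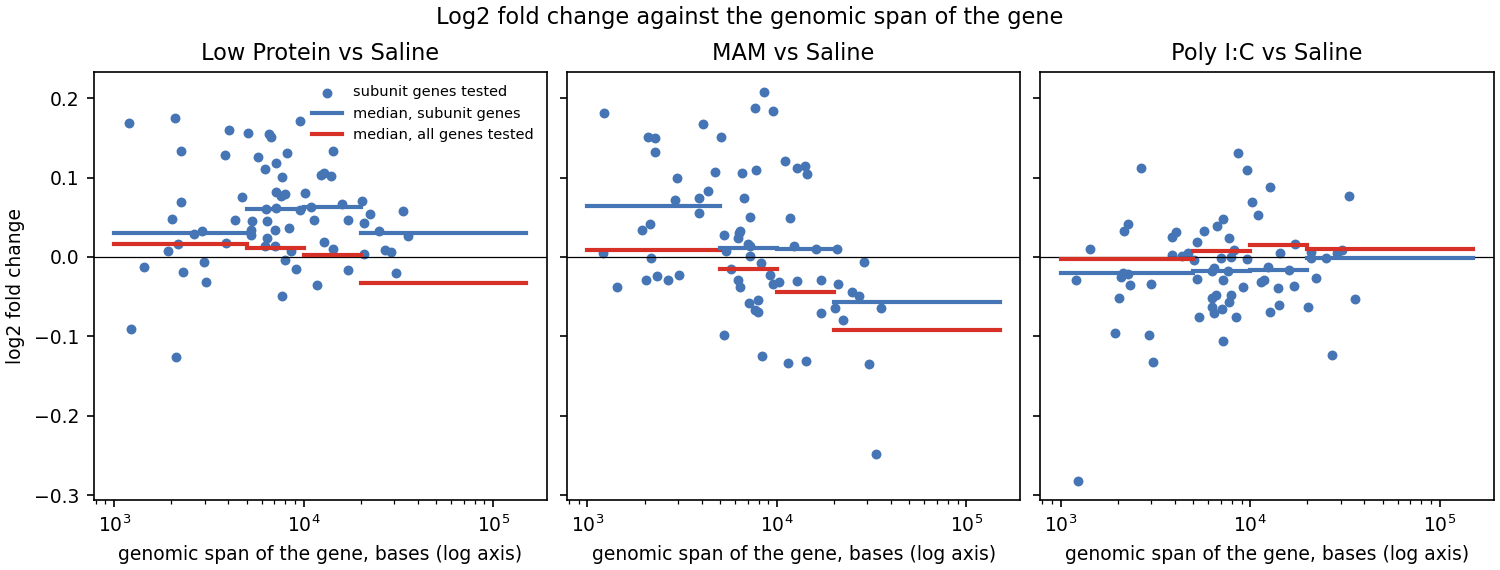
Log2 fold change of the 71 members tested (points) against the genomic span of the gene in bases (log axis), for 3 treatments against Saline, with the median of the members (blue) and of all genes tested (red) in 4 bins of span. In MAM both medians are lower in the longest bin (-0.06 and -0.09) than in the shortest (0.06 and 0.01).

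The scale of the values also moved these counts. Under median-of-ratios, upper quartile or library size scaling, 55 of 71 members lay above 0 in MAM in place of 38, with a median of 0.05, and 7 to 8 members were higher with Ndufs1 still lower. Over all 5086 genes, 156 were higher in MAM at unadjusted p under 0.05 as deposited, and 287 to 306 under these scalings. As a share of the genes called in MAM, those higher were 27.3% as deposited and 58.0% to 60.6% under these scalings. In Low Protein the share was 44.4% as deposited and 34.2% under upper quartile scaling, and in Poly I:C 42.7% and 24.6%.

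In Poly I:C against Saline, 0 members were higher and 1 was lower at unadjusted p under 0.05, against 4.25% and 5.7% of all genes. None passed after adjustment (lowest adjusted p 0.353; 0% of all genes) and 0 were clear of overlap (0.492% of all genes). The gene that was lower was Cox6a1, the non-muscle form of subunit VIa of complex IV, which was 46.4, 52.9 and 56.1 in Saline and 44.9, 47.3 and 51.6 in Poly I:C. The groups overlapped over much of their range. The log2 fold change of Cox6a1 was -0.13 ± 0.050 (SE, limma, adjusted p = 0.353). One gene more, 2 in all, passed without Poly I:C pup 1.2, Poly I:C pup 2.3, Saline pup 1.3 or Low Protein pup 2.3, the last of which enters by the shared estimate of spread. Over all genes tested, the fits with 1 pup or litter left out gave 228 to 964 calls in place of 506.

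The members as a whole differed little from 0 in Poly I:C, with a median of -0.02 (0.01 for all genes). Of the 71, 26 lay above 0 (36.6%, against 53.2% of all genes). Within 0.1 of 0 on the log2 scale were 64 of 71, and 3483 of all 5086 genes. Complex IV lay lowest. Of its 13 genes 1 was above 0, Cox6c at 0.09, and the median was -0.04. Cox6b2 stood at -0.28 with a wide interval (-0.72 to 0.16), Cox5b at -0.10 (-0.23 to 0.04) and Cox4i1, the main form of subunit IV, at -0.06 (-0.17 to 0.05). Complex II was nearest to 0, with a largest difference of 0.01 (Sdhc), and Atp5a1 and Atp5b of complex V were at -0.05 and -0.01.

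Over all members, the mean log2 value of a pup relative to the Saline mean ran from -0.04 to 0.03 in Saline, and Poly I:C pups from -0.12 to 0.07, MAM pups from -0.06 to 0.06 and Low Protein pups from -0.01 to 0.16. The 4 ranges overlapped. The spread among Poly I:C pups (SD 0.08) and among Low Protein pups (SD 0.07) was wider than that among Saline pups (SD 0.03). The means of the 2 litters of a group were -0.02 and 0.02 in Saline, 0.05 and 0.06 in Low Protein, 0.02 and 0.01 in MAM, with -0.02 and -0.01 for Poly I:C. Single genes could differ by litter, as Ndufb8 did in Poly I:C, where the 3 pups of one litter were all above the 3 of the other.

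**Figure D5:**
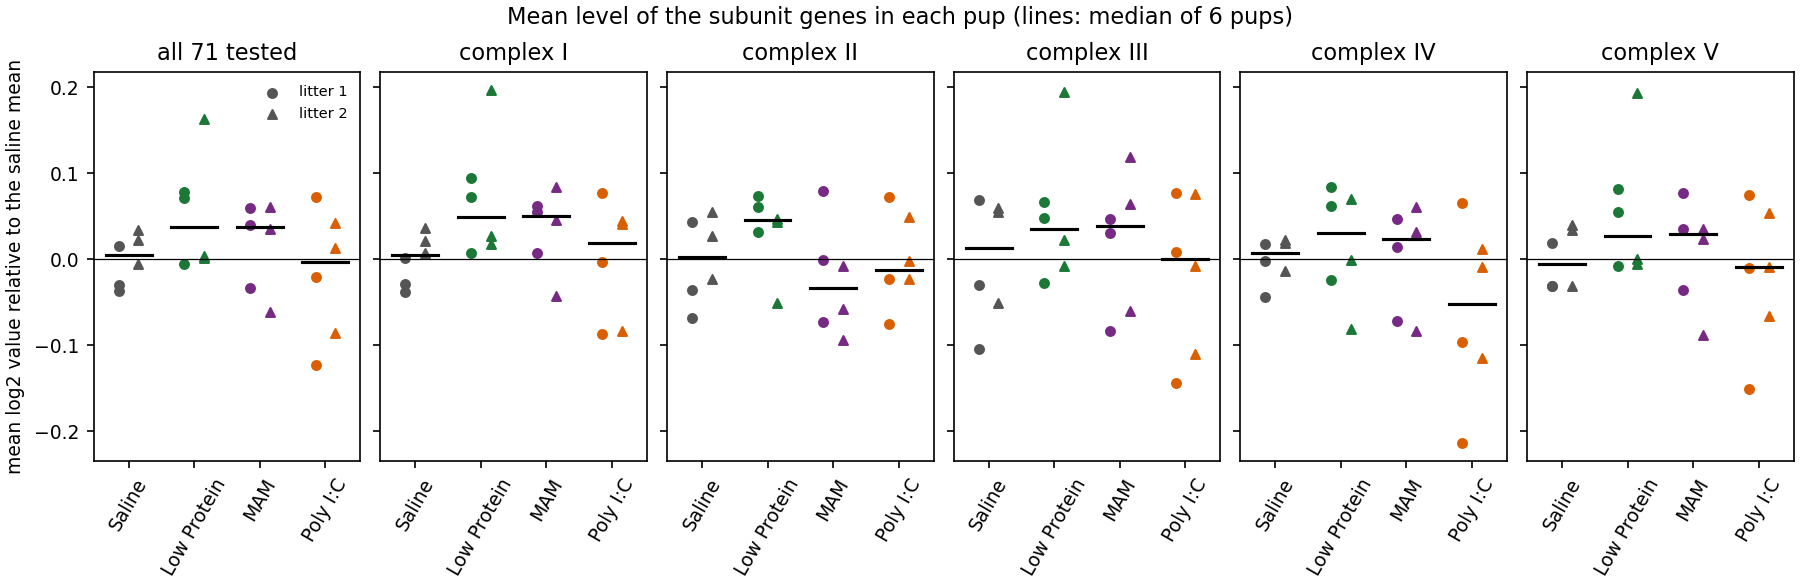
Mean log2 value of the members in each pup relative to the Saline mean, for all 71 tested and for each complex (circles litter 1, triangles litter 2 of the group, lines medians of 6 pups). Low Protein pup 2.3 is the highest point in the panel of all members at 0.16, and the lowest is a Poly I:C pup at -0.12.

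The treatments were also set against each other. Between Low Protein and MAM, 11 members were higher in Low Protein and 1 lower at unadjusted p under 0.05, against 8.79% and 2.22% of all genes. None passed after adjustment, where 0.0983% of all genes did, and 4 were clear of overlap (1.1% of all genes). Among them were Ndufs1, at 0.31 ± 0.066 (limma, adjusted p = 0.0579), Atp5j, coupling factor 6 of the peripheral stalk, at 0.17 ± 0.051, and Atp5d, the δ subunit of the central stalk, which was lower in Low Protein at -0.16 ± 0.063. Atp5j was 8.81 to 10.6 in Low Protein and 8.15 to 8.81 in MAM, so that the gap between them was below the rounding. Between Low Protein and Poly I:C, 9 were higher in Low Protein and 0 lower (2.95% and 2.36% of all genes), with 0 passing adjustment (0.0393%; lowest adjusted p 0.726) and 0 clear of overlap (0.315%).

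Between MAM and Poly I:C, 9 members were higher in MAM and 1 lower, against 6.02% and 17.1% of all genes. After adjustment 1 of 71 passed, against 3.46% of all genes, and the same gene was the only one clear of overlap, as 4.35% of all genes were. It was Ndufs1, with a log2 fold change of -0.32 ± 0.066 (95% interval -0.46 to -0.19; limma, adjusted p = 0.0137). Over 46 alternative settings, its fold change lay between -0.35 and -0.19 and its adjusted p between 0.000575 and 0.285, with 42 under 0.05. The other 4 were litter means (0.285) and the fits without the first MAM litter (0.122), the second MAM litter (0.131) or the first Poly I:C litter (0.0872). Among those higher in MAM were Ndufb11 (0.15 ± 0.054), Ndufs7 (0.21 ± 0.077) and Atp5d (0.17 ± 0.063), none of which passed after adjustment. They were not the largest differences, since the members of complex IV reached 0.46.

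Where a subunit has several genes, the shares of estimated reads were described without a test. These shares depend on the GRCr8 spans, and the order can differ on the deposited values. Of the estimated reads of the c subunit genes in Saline, 13.5% ± 1.05 (SD, n = 6) came from Atp5g1, 60.2% ± 2.18 from Atp5g2 and 26.4% ± 2.78 from Atp5g3. On the deposited values the Saline shares were 22.7%, 27.5% and 49.8%. The share of Atp5g2 in estimated reads was 61.9% ± 2.26 in MAM, 60.9% ± 1.85 in Low Protein and, with the widest spread, 59.98% ± 3.27 in Poly I:C. Cox4i1 gave 97.9% ± 0.399 of the reads of the subunit IV pair in Saline, and Cox4i2, a form linked with low oxygen, the remaining 2.07%. Ndufa4 gave 96.8% ± 0.530 against its paralog Ndufa4l2, also linked with low oxygen. Cox7a2 and Cox7a2l, the second of which takes part in supercomplex assembly, had 50.8% and 49.2% of their reads in Saline. The share of Cox7a2 ran from 47.4% to 56.3% over the Saline pups, 49.1% to 57.3% over the Low Protein pups, 53.5% to 57.2% over the MAM pups and 45.1% to 54.9% over the Poly I:C pups, and these ranges overlapped. Reads of Ndufa10 and its copy Ndufa10l1 were split 50.7% to 49.3% in Saline, and the deposited values 4.00% to 96.0%. The muscle forms Cox6a2 and Cox8b were near the offset. Cox6a2 was above it in 11 of 24 pups, with a highest value of 0.118, and Cox8b in 5 of 24, with a highest value of 0.0399, while Cox8c, a form known from testis, was at the offset in all 24.

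Of the 9 members that were not tested, 5 were listed above the offset in every pup. Ndufs4, an accessory subunit of complex I that is needed for its assembly and is mutated in Leigh syndrome, spans 110495 bases and was listed at 0.415, 0.433 and 0.523 in Saline in spite of an estimated 1975 reads a pup. Atp5f1, subunit b of the peripheral stalk, was at 0.651, 0.715 and 0.809, and Ndufa1, an X-linked subunit of complex I, at 0.0267, 0.0287 and 0.0336. The span of Ndufa1 gave a median of 4.44 estimated reads in Saline. Its coefficient of variation over the Saline pups, 8.59%, is narrow for so few reads, so the read estimate may not hold for this gene. Cox4i2 and Atp5s were at medians of 0.267 and 0.160. For these 5 genes, exact permutation tests over all splits of 12 pups (two-sided, unadjusted) gave p from 0.197 to 0.929 in the 15 comparisons with Saline. The other 4 were Cox6a2, Cox8b, Cox8c and Cox6c-ps1, with values at the offset in some or all pups.

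After the group means were removed, the members tended to vary together over the 24 pups. The median pairwise Pearson's r was 0.24 over the 71 members and 0.07 over all genes tested, as a description of genes that share the library and dissection of each pup. It was 0.20 within complex I, 0.30 within complex III, 0.22 within complex IV and 0.24 within complex V, and members of different complexes were as close, with 0.25 to 0.30 between each of these and the rest. Complex II was the exception, at -0.06 among its own 4 genes and 0.17 with the others. Ndufs3 and Atp5o, the oligomycin sensitivity protein of complex V, followed the mean of the other members most closely, with r of 0.85 each, while Ndufb10 (-0.36), Ndufa4l2 (-0.35) and Sdha (-0.34) ran against it.

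Other genes of mitochondria and of energy metabolism were described from lists. At unadjusted p under 0.05 against Saline, 3.07% of all genes tested were higher and 8.18% lower in MAM. These shares were 3.66% and 4.58% in Low Protein, and 4.25% and 5.7% in Poly I:C. Of 16 assembly factors tested, MAM had 2 that passed (Coa3 at 0.19 and Ndufaf4, a complex I assembly factor, at -0.23), Low Protein 1 (Cox17, a copper carrier, at 0.19) and Poly I:C 1 (Pet100 at -0.32). In the citric acid cycle 2 of 12 were lower in MAM, Idh3a at -0.22 and Dlst at -0.13. In MAM 11 of 12 lay below 0 and 1 above, where 32.1% of all genes were above 0. The median was -0.09, against -0.05 for all genes. Of 15 glycolytic genes, 5 were lower in Poly I:C (Tpi1 at -0.16, Gpi at -0.17, Eno2 at -0.21, Ldha at -0.19 and Hk1 at -0.18). Their median there was -0.11, against 0.01 for all genes. In Low Protein 2 were lower, with a median of -0.08 against -0.01 for all genes, and in MAM 1 was higher. These calls are at unadjusted p under 0.05, and none of these genes passed against Saline after adjustment. Of 6 regulators of mitochondrial biogenesis tested, 0 passed in any treatment against Saline, and of 18 carriers and import genes MAM had 3 that passed, Low Protein 1 and Poly I:C 0.

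Genes of other large assemblies were described beside the subunit genes. At unadjusted p under 0.05 in Low Protein, where 3.66% of all genes were higher and 4.58% lower, 37 of 76 cytosolic ribosomal protein genes were higher and 0 lower, with a median of 0.17, against 0.05 for the members. None of the 76 passed after adjustment. Of 56 mitochondrial ribosomal protein genes 9 were higher at the same threshold, none after adjustment, and 0 lower, with a median of 0.07, and of 31 proteasome genes 0 passed, with a median of 0.04. In MAM the medians of the same lists were 0.09, 0.01 and -0.05, and in Poly I:C 0.04, 0.02 and 0.02. A further 4 genes of the respiratory chain that the symbol rule does not reach were tested, and 0 passed against Saline.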

How the data were processed

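The authors aligned reads with STAR 2.4.1d to rn6 and quantified genes in Partek, per the labels, and deposited TPM with 0.0001 added. Every column summed to 70350.1 in the table used here. From these TPM, log2 values were fitted by group over 24 pups in limma 3.58.1 (R 4.3.3), after a filter at a mean above 1 in every group. Each p was adjusted by Benjamini-Hochberg over the 5086 genes. The fit was tested on simulated data. Genomic spans came from RefSeq (GRCr8), where 97.5% of genes and all 80 members matched (17 by synonym), and the step of 1 read from low values times span, of which 48.5% to 54.2% fell within 0.05 of a whole number. A supplementary table of group comparisons by the authors was not used. The members, lists and tests were chosen with earlier results of these data known. Members named were those at unadjusted p under 0.05 against Saline or without overlap, the highest and lowest of each complex, core subunits, isoform groups, and those not tested; 1 member and 1 tissue marker are not reported here; Ndufs6, Cox6c, Atp5o, Ndufb10 and other single genes were named after their values were seen. Alternatives covered filter, scaling, pseudocount, litter, replicate block, weights, span and each pup or litter left out.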

Additional observations from a re-analysis of the deposited data

Results flagged for a closer look

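The spread of the 6 pups of each group was examined for 40 named members and for the mean over the members and over each complex, 184 groups of 6 in all. In 6 of them the end value stood apart from the others by more than Dixon's 95% critical value for 6 samples. Chance flags about 1 in 20 groups. The causes were not tested.

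Among the members, Atp5g3 was 45.0 in Poly I:C pup 1.3 and 26.9 to 31.9 in the other Poly I:C pups. Ndufa2 was 13.3 in MAM pup 2.1, against 16.1 to 17.8 in the others of its group. Uqcrfs1 was 19.2 in Poly I:C pup 1.1 and 21.2 to 22.3 in the rest. In Low Protein, Ndufs3 was 7.00 in pup 2.3 (5.88 to 6.21) and Sdhd was 4.75 in pup 2.1 (5.88 to 6.54). The mean log2 value of complex II relative to Saline was -0.051 in that same pup 2.1, against 0.03 to 0.07 in the other Low Protein pups.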

How the results depend on the processing

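In all planned settings 0 members passed after adjustment against Saline, except that with array quality weights 2 did in MAM (Ndufa11 and Ndufs1). Counts at unadjusted p under 0.05 moved more. In Low Protein, 6 became 2 with litter means, 2 with upper quartile scaling and 12 with a replicate block on the pup number. In MAM, 6 became 1 with litter means, 15 with array weights and 10 with the replicate block. In Poly I:C, 1 became 0 with library size scaling or litter means and 2 with array weights or the replicate block. Over these other settings, calls over all genes ran from 262 to 911 in Low Protein (419 in the main fit). In MAM they ran from 250 to 1270 (572) and in Poly I:C from 312 to 1194 (506). Some of these settings change the gene filter. Leaving out 1 pup or 1 litter gave 2 to 11 in Low Protein, 2 to 10 in MAM and 0 to 3 in Poly I:C. The calls over all genes in those fits were 271 to 530, 163 to 862 and 228 to 964. The count in MAM was 2 without the first Saline litter, 3 without Saline pup 1.3 and 10 without either Saline pup 2.1 or the second Saline litter. In Low Protein it was 11 without pup 2.1, 3 without pup 1.2, and 2 without pup 2.3, its second litter or the first Saline litter. The labels give pups of different groups no link beyond this number. With group means removed, same-numbered pairs had r from -0.42 to 0.56 with a median of 0.16, against a median of -0.02 for other pairs. Of the 36 same-numbered pairs 22 were above 0.1. The closest pup of another group had the same number in 21 of 72 checks. What the number stands for was not tested. Medians of the members ran from 0.03 to 0.07 in Low Protein, -0.0038 to 0.05 in MAM and -0.04 to -0.0022 in Poly I:C. In MAM 30 of the 32 fits with a pup or litter left out kept the sign of the median. These shifts were within the spread between pups (SD 0.05 to 0.08 in treated groups), a limit that a median of 0 would also meet. The 15 fold changes of called members that were refitted kept their sign in all 46 settings, and the other members were not followed one by one. Their calls held less well. The number of settings at unadjusted p under 0.05 ran from 26 for Ndufs3 in Low Protein to 46 for Ndufs1. The fold change of Ndufs7 in MAM fell as low as 0.04. Intervals of the fold changes had half-widths from 0.07 to 0.47 on the log2 scale, with a median of 0.14.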
